A study of Mus musculus with 69 samples.

Results

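The 9 genes described here are the glucocorticoid receptor Nr3c1, the mineralocorticoid receptor Nr3c2, the steroid-converting enzymes Hsd11b1 and Hsd11b2, and 5 target genes of these receptors, Tsc22d3, Sgk1, Klf9, Fkbp5 and Zbtb16. They were taken by symbol from a list of corticosteroid response genes, and all 9 were found among the 24523 gene symbols with values and passed the filter on low counts. RNASeq of whole perfused kidneys of NZB/W F1 mice, a hybrid strain that develops lupus nephritis, was used in 65 original libraries of 69, each from 1 mouse. Young mice (n = 30) were 12 weeks old and nephritic mice (n = 27) were 30 to 45 weeks old with established proteinuria, and both groups were untreated and collected at ZT0, 4, 8, 12, 16 and 20, with lights turned on at ZT0 and off at ZT12. Remission mice (n = 8) were 36 to 50 weeks old and were collected at ZT0 or ZT12. They had received cyclophosphamide at 50 mg/kg with 6 doses of CTLA4Ig (200 ug) and anti-CD40L (250 ug) over 2 weeks, and were harvested 8 weeks later. Age and disease cannot be told apart in the comparison of young with nephritic mice. The remission and repeat libraries were treated as a run of their own, an assignment made by rule and not read from a run label. With it, run and remission cannot be told apart among the original libraries. Only 4 repeat libraries of young and nephritic mice then link the runs, and levels in remission are given with and without a run term estimated from them.

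Glucocorticoids are released by the adrenal cortex in a daily rhythm that rises towards the active phase, which is the night in mice. The steroid enters the cell, binds its receptor, and the complex moves to the nucleus, where it occupies glucocorticoid response elements (GREs) and changes the transcription of nearby genes. The mineralocorticoid receptor binds cortisol and corticosterone as readily as aldosterone, and in the aldosterone-sensitive distal nephron the enzyme encoded by Hsd11b2 inactivates the glucocorticoid before it reaches the receptor, whereas the enzyme encoded by Hsd11b1 works mainly in the opposite direction and regenerates active hormone.

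The sequences before the start sites of 3 target genes are shown because these genes passed the test over the day in both young and nephritic mice and their windows differ in the letters they hold. RefSeq windows of 300 bases on GRCm38.p6, from 250 bases before to 50 after a start site, were matched for 6 of the 9 genes (13 windows). They were searched on both strands for a GRE palindrome (GNACANNNTGTNC), which 0.475% of all 32851 windows hold, a GRE half-site (AGAACA), which 19% hold, and the clock E-box (CACGTG), which 7.15% hold. Capitals mark these motifs, and each sequence runs 5′ to 3′ on the strand of its gene. The first is the upstream part of 1 of 3 Tsc22d3 windows, chrX:140600660-140600772 on the minus strand, outside the annotated exons, with a half-site at -185 to -180. The second is 1 of 6 Sgk1 windows, chr10:21993640-21993889 on the plus strand, which lies within longer Sgk1 transcripts but in no exon and holds a palindrome at -188 to -176 with overlapping half-sites, and an E-box at -246 to -241 that overlaps a further half-site. The third is the Fkbp5 window, chr17:28486150-28486399 on the minus strand, which lies within a longer Fkbp5 transcript in no exon and holds an E-box at -169 to -164 and neither GRE form.
Tsc22d3: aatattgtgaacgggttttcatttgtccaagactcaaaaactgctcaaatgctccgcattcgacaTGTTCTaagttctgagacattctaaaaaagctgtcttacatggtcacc
Sgk1: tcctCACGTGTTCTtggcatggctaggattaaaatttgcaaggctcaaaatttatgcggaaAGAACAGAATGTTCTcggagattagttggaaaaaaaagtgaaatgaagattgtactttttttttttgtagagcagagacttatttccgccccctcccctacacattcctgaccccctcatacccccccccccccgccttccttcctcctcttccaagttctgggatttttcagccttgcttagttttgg
Fkbp5: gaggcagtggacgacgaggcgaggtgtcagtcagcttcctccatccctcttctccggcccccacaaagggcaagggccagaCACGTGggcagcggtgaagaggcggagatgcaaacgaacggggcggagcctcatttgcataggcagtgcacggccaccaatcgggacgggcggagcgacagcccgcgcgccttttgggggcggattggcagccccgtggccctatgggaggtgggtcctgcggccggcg

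A further 2 of the 6 Sgk1 windows each hold a single half-site. No motif was found in the remaining windows of Tsc22d3 and Sgk1, or in those of Klf9, Nr3c2 and Hsd11b1. A match is a description of these letters and not evidence of a bound site, and response elements outside the windows were not searched.

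Total counts per library ranged from 25257530 to 35744843 in young mice, from 26596500 to 48075977 in nephritic mice and from 13311278 to 21849912 in remission mice. The sequencing set was a covariate of each fit, since 6 young and 5 nephritic libraries, limited to ZT0 and ZT12, belong to a first set (Set 1). Libraries were whole kidney, so fewer cells of a type and less RNA per cell cannot be told apart. In nephritic against young mice, all 15 immune cell markers and all 8 tubular injury markers were higher, and all 10 proximal tubule markers were lower, and their part in the results below was not tested. Immune cell markers summed to 123.8 to 254.8 CPM in young and 302.5 to 4539 CPM in nephritic mice, with none at 0 throughout a group. Adrenal markers summed to 111.8 to 2911 CPM in young, 73.61 to 2006 CPM in nephritic and 104 to 125.1 CPM in remission mice, and 8 libraries (7 young, 1 nephritic) had over 10 CPM of the adrenal enzyme Cyp11b1. Liver markers, a list added after seeing the data, were far higher in 3 young libraries than in any other. The remission library s9, labelled ZT12, was nearest in its counts to the ZT0 remission library s4, and results for remission mice are given with and without it.

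Both receptors were expressed at lower levels in nephritic than in young kidneys, and neither passed the test for a change over the day in either group. Per length of exon, Nr3c1 was the more abundant receptor, with a median of 14.9 CPM per kb in young, 11.9 in nephritic and 11.3 in remission mice. Nr3c2 had medians of 2.29, 1.91 and 2.61 CPM per kb in the same order. The test of level fits a single group difference over the day with time point and set held, so the 6 time points do not count equally. In this test 4 of the 9 genes passed an adjusted p of 0.05, 1 higher and 3 lower in nephritic mice, where 62.1% of all genes tested passed (28.1% higher and 33.9% lower).

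Nr3c1, which encodes the glucocorticoid receptor (chromosome 18, GRCm38 39410545 to 39519421), fell in nephritic mice (log2 change -0.37, SE 0.055, edgeR adjusted p = 7.7e-08). At ZT0 it ranged from 98.5 to 127 CPM with a median of 115 (n = 7) in young mice and from 61.7 to 94.5 CPM with a median of 83 (n = 7) in nephritic mice. The ZT0 groups did not overlap, and the difference passed (log2 change -0.51, SE 0.11, edgeR adjusted p = 0.000257). At ZT12 it ranged from 96.7 to 153 CPM with a median of 114 (n = 7) in young and from 62.8 to 114 CPM with a median of 87 (n = 6) in nephritic mice (log2 change -0.42, SE 0.12, edgeR adjusted p = 0.00224). The ZT12 groups overlapped, with the 3 Set 1 young mice highest among the young and both Set 1 nephritic mice lowest among the nephritic. In Set 2 alone the ZT12 difference was not past the threshold (log2 change -0.075, SE 0.12, edgeR adjusted p = 0.659). At ZT16 the nephritic values of 75.1, 81.9 and 82 CPM lay below the young values of 84.8, 109, 109.6 and 112 CPM, without overlap (edgeR adjusted p = 0.0793). At ZT20 the nephritic values were 91.6, 98.3 and 105 CPM and the young values 107, 112, 114 and 152 CPM, also without overlap (edgeR adjusted p = 0.268). At ZT8 the nephritic values of 81, 96.6, 112 and 113 CPM again lay below the young values of 115, 118, 123 and 134 CPM (edgeR adjusted p = 0.317). The groups overlapped at ZT4, with nephritic values of 101, 105, 106 and 112 CPM against young values of 104, 116, 118 and 119.8 CPM (edgeR adjusted p = 0.442). The difference thus passed at ZT0 and ZT12 and at no other time point. The share of all genes whose group ranges stood apart was not counted, so absence of overlap is a description here and below.

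Nr3c2, which encodes the mineralocorticoid receptor (chromosome 8, 76899442 to 77245012), was lower in nephritic mice in the test of level (log2 change -0.37, SE 0.089, edgeR adjusted p = 0.00036). The difference was largest at ZT12 (log2 change -0.99, SE 0.17, edgeR adjusted p = 4.27e-06) and passed at no other time point. The other log2 changes ran from -0.34 at ZT0 (edgeR adjusted p = 0.0719) to -0.013 at ZT4 (edgeR adjusted p = 0.97). At ZT12 it ranged from 13.9 to 23.1 CPM with a median of 18.9 (n = 7) in young mice and from 5.07 to 13.4 CPM with a median of 8.74 (n = 6) in nephritic mice, without overlap. The lowest nephritic values were 5.07 CPM in HIL5RU and 6.38 CPM in HIL5LL, both of Set 1, and 6.04 CPM in RX8RU. The difference was smaller and still passed in Set 2 alone (log2 change -0.55, SE 0.17, edgeR adjusted p = 0.0135). At ZT4 and ZT8 the groups overlapped, with nephritic values of 12.2, 12.7, 13 and 14.5 CPM and 12.4, 12.9, 14.5 and 16.4 CPM against young values of 10.4, 13.2, 13.9 and 14 CPM and 14.2, 15.1, 15.5 and 15.8 CPM. The test of a different rhythm between the groups did not pass for Nr3c2 (edgeR adjusted p = 0.0564).

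Hsd11b2, which encodes 11beta-hydroxysteroid dehydrogenase type 2 (chromosome 8, 105518755 to 105523988), was the most abundant of the 4 receptor and enzyme genes per length, with medians of 147 CPM per kb in young, 144 in nephritic and 143 in remission mice. Its level over the day did not pass (log2 change 0.036, SE 0.080, edgeR adjusted p = 0.714, 95% interval -0.12 to 0.19). Its time effect passed in nephritic mice (edgeR adjusted p = 0.0226) and not in young mice (edgeR adjusted p = 0.222), and the difference in rhythm did not pass (edgeR adjusted p = 0.304). The lowest nephritic mean was at ZT4, with values of 175, 209, 212 and 264 CPM, and the highest at ZT8, with values of 252, 311, 319 and 359.7 CPM. Young values at these times were 255, 258, 287 and 355 CPM and 260.3, 262, 307 and 314 CPM. The 6 young Set 1 libraries, at 182 to 250.2 CPM, lay below all 8 young Set 2 libraries of ZT0 and ZT12, whereas the highest nephritic values at these times were in Set 1, 473 CPM in CRS60 and 357 CPM in HIL5LL. Without the set covariate the nephritic time effect was lost (edgeR adjusted p = 0.147), and in Set 2 alone Hsd11b2 was lower in nephritic mice at ZT4 (log2 change -0.39, SE 0.14, edgeR adjusted p = 0.0227) and at ZT12 (log2 change -0.46, SE 0.14, edgeR adjusted p = 0.0107).

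Hsd11b1, which encodes the type 1 enzyme (chromosome 1, 193221634 to 193264075, overlapping Lamb3 transcripts, so that reads of the overlap may be shared), had medians of 9.20 CPM per kb in young, 10.3 in nephritic and 13.4 in remission mice, with a level difference between nephritic and young mice that did not pass (log2 change -0.052, SE 0.14, edgeR adjusted p = 0.766). The 3 highest values of all 65 libraries were in young mice, 122 CPM in ZT16RU, 115 CPM in ZT8LU and 109.5 CPM in ZT16LL, and the other young mice lay between 19.1 and 56.3 CPM. The same 3 libraries were the highest for all 10 of 10 liver markers. Their albumin transcript Alb was at 9396, 10520 and 8802 CPM, against 3072 CPM in the next library and a median of 128.3 CPM. The liver markers summed to 104.2 to 14840 CPM in young, 31.56 to 3632 CPM in nephritic and 65.98 to 105.4 CPM in remission mice. Without these 3 libraries, a comparison added after seeing the data, Hsd11b1 was higher in nephritic mice (log2 change 0.22, SE 0.093, edgeR adjusted p = 0.0384). These libraries hold the 3 highest Hsd11b1 values and are all young, so leaving them out raises this difference. The value for Hsd11b1 is therefore a description. In that fit Zbtb16 was also higher (log2 change 0.40, SE 0.18, edgeR adjusted p = 0.0484). Nr3c1, Nr3c2, Klf9 and Fkbp5 passed with and without these libraries.

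**Figure D1:**
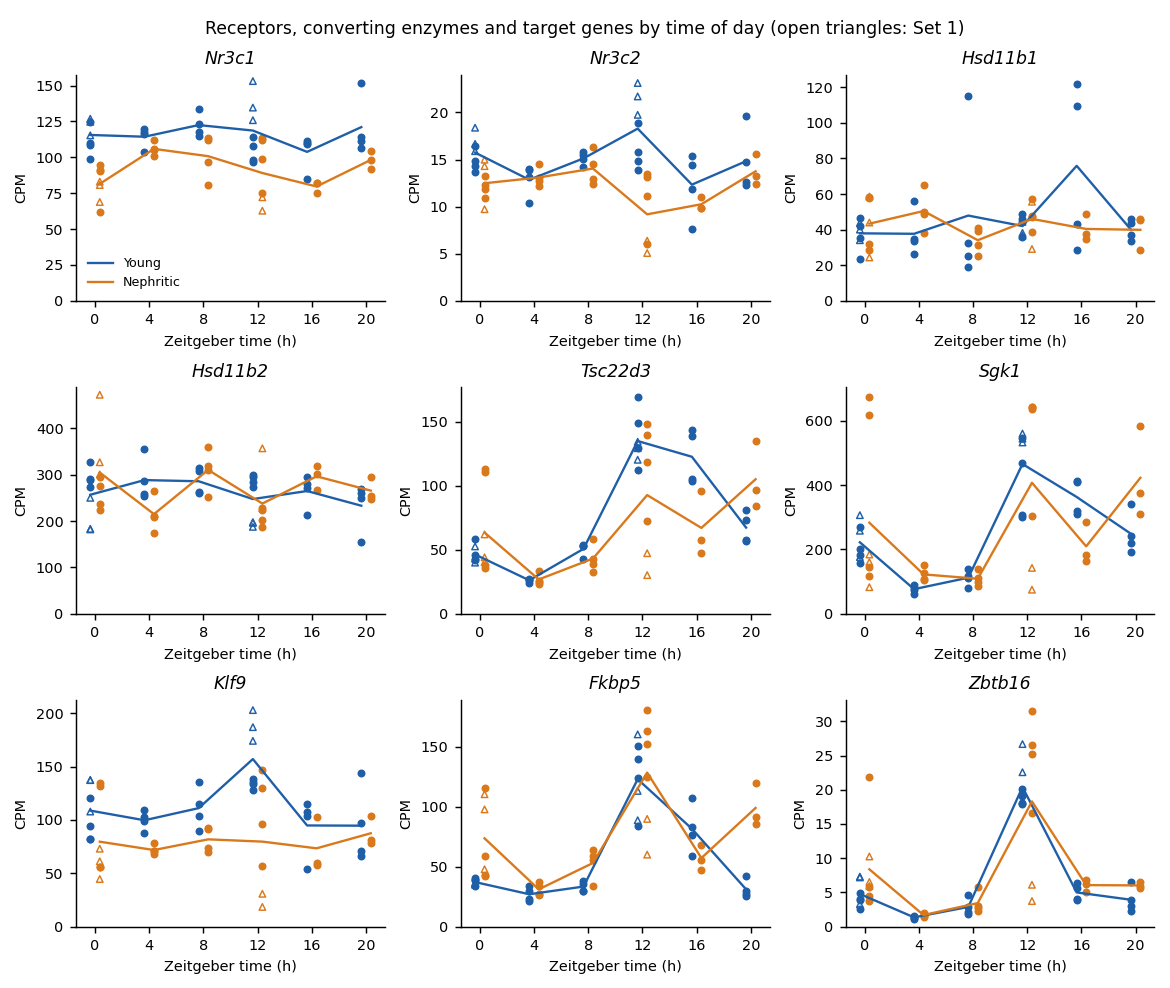
TMM-scaled CPM (linear axes from 0) of each of the 9 genes against Zeitgeber time in hours in young (blue) and nephritic (orange) mice, with 1 point per mouse, lines through the mean of each time point, and open triangles for Set 1 libraries. Tsc22d3, Sgk1, Fkbp5 and Zbtb16 rise from their lowest means at ZT4 to their highest at ZT12 in young mice, and the 3 young points of Hsd11b1 above 100 CPM are the libraries with the highest liver markers.

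In young mice 5 of the 9 genes, all of them targets, passed the test over the 6 time points, where 39.8% of all genes tested passed. Of the 4 with a wide daily range, Tsc22d3, Sgk1, Fkbp5 and Zbtb16 had their lowest mean at ZT4 and their highest at ZT12. The same 4 genes passed in nephritic mice, with Hsd11b2 as the fifth, where 21.6% of all genes tested passed. The rhythm itself differed between the groups for Fkbp5 and Tsc22d3, 2 of the 9 genes, where 6.27% of all genes tested passed. In place of separate time points, a 24 h cosine passed 0 of the 9 genes in nephritic mice and 0 for the difference in rhythm, with adjusted p of 0.0796 for Tsc22d3, 0.108 for Fkbp5, 0.209 for Sgk1 and 0.224 for Zbtb16 in nephritic mice by edgeR. DESeq2, limma and RLE size factors each left 3 of the 9 genes past the threshold for the difference in rhythm.

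Tsc22d3 encodes GILZ, a glucocorticoid-induced leucine zipper protein with anti-inflammatory actions (chromosome X, 140539528 to 140600659). In young mice its lowest values were those of ZT4, 24.3, 26, 26.7 and 27.2 CPM. At ZT8 they were 42.9, 52.6, 53.2 and 53.8 CPM and at ZT12 they ranged from 112 to 169 CPM with a median of 129.6 (n = 7). The 7 mice of ZT12 all lay above every mouse of ZT0, ZT4, ZT8 and ZT20. At ZT16 the values were 103, 105, 139 and 143 CPM and at ZT20 56.9, 57.9, 73 and 81.2 CPM, and at ZT0 they ranged from 39.9 to 58 CPM with a median of 42.9 (n = 7). The time effect passed (edgeR adjusted p = 7.63e-14), and a 24 h cosine fitted to the young mice had an amplitude of 1.10 (SE 0.077) on the log2 scale with a fitted peak at ZT 14.9 (SE 0.272 h).

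In nephritic mice Tsc22d3 was as low at ZT4 as in young mice, at 23.2, 24.9, 25.2 and 33.6 CPM, and at ZT8 it was 32.3, 39, 42.6 and 58.2 CPM. At ZT12 the 6 mice spread over 30.1 to 148 CPM with a median of 95.5 (n = 6), and at ZT16 the values were 47.6, 57.3 and 96.1 CPM. At ZT20 they were 83.7, 96.7 and 135 CPM and at ZT0 they ranged from 35.9 to 113 CPM with a median of 44 (n = 7). The values of 3 of the 6 nephritic mice at ZT12 (HIL5RU, HIL5LL and RX8RU) were under the whole young range, all 3 at ZT16 were under it, and all 3 at ZT20 were above it. At ZT0 RX11LL and RX12LL stood apart from the other 5 nephritic mice at 111 and 113 CPM. The time effect passed (edgeR adjusted p = 0.00409), with an amplitude of 0.80 (SE 0.21) on the log2 scale with a fitted peak at ZT 17.2 (SE 0.799 h). The rhythm differed from that of young mice (edgeR adjusted p = 0.0351), and this call was lost, with adjusted p up to 0.06 by edgeR, on leaving out any 1 of ZT16LL, CR3LL, RX8RU, RX7LL, RX9RU and RX90. It was also lost without the 3 libraries high in liver markers (edgeR adjusted p = 0.0674), without the set covariate (edgeR adjusted p = 0.074) and with a 24 h cosine (edgeR adjusted p = 0.164).

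At ZT12 Tsc22d3 was lower in nephritic mice (log2 change -0.70, SE 0.23, edgeR adjusted p = 0.0117), a call that was lost without HIL5RU (log2 change -0.50, edgeR adjusted p = 0.0756) or without HIL5LL (log2 change -0.58, edgeR adjusted p = 0.0528), and without the set covariate (log2 change -0.55, edgeR adjusted p = 0.0593). Both are Set 1 libraries, and in Set 2 alone the difference was not past the threshold (log2 change -0.24, SE 0.26, edgeR adjusted p = 0.511). At ZT16 it was lower as well (log2 change -0.88, SE 0.32, edgeR adjusted p = 0.0486), but leaving out a single mouse ended this call in 49 of 57 cases, with adjusted p up to 0.304 by edgeR. The level over the day did not pass (log2 change -0.11, SE 0.13, edgeR adjusted p = 0.465).

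Sgk1 encodes a serum- and glucocorticoid-regulated kinase that raises sodium channel activity in the distal nephron (chromosome 10, 21882184 to 21999903). It followed a similar time course to Tsc22d3 and was the gene nearest to it among 17521 by Pearson r of log2 CPM over the 57 young and nephritic libraries (r = 0.90, a description). Young values at ZT4 were 62.3, 74.8, 78.6 and 89.6 CPM and at ZT8 80.4, 111, 117 and 139 CPM. At ZT12 they ranged from 300.0 to 561 CPM with a median of 533 (n = 7), and no mouse of ZT12 or ZT16 was as low as any mouse of ZT4 or ZT8. At ZT16 the values were 309, 319, 411 and 414 CPM, at ZT20 191, 221, 241 and 343 CPM, and at ZT0 they ranged from 159 to 307 CPM with a median of 202 (n = 7). The time effect passed (edgeR adjusted p = 1.59e-09), with an amplitude of 1.12 (SE 0.13) on the log2 scale with a fitted peak at ZT 16.1 (SE 0.389 h).

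Nephritic Sgk1 values were 104, 108, 126 and 151 CPM at ZT4, all above the young range at that time, and 86.1, 100, 110.2 and 138 CPM at ZT8. At ZT12 they ranged from 74.6 to 643 CPM with a median of 470.4 (n = 6), with 3 mice (RX11RU, RX10RL and RX9RL) above every young mouse and HIL5RU and HIL5LL below every young mouse of that time. At ZT16 they were 163, 182 and 284 CPM, all under the young range, and at ZT20 309, 375 and 585 CPM. At ZT0 they ranged from 82.4 to 674 CPM with a median of 160.4 (n = 7), and the 2 highest, RX11LL at 674 CPM and RX12LL at 617 CPM, were also the highest for Tsc22d3. The nephritic time effect passed (edgeR adjusted p = 0.00365) but not without the set covariate (edgeR adjusted p = 0.0725), with an amplitude of 0.84 (SE 0.28) on the log2 scale with a fitted peak at ZT 17.8 (SE 1.00 h). No time point, the level over the day (edgeR adjusted p = 0.847) or the rhythm (edgeR adjusted p = 0.288) passed between the groups. In Set 2 alone Sgk1 was higher in nephritic mice over the day (log2 change 0.38, SE 0.16, edgeR adjusted p = 0.0444) and at ZT0 (log2 change 0.94, SE 0.34, edgeR adjusted p = 0.035).

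Klf9, which encodes a zinc finger transcription factor induced by glucocorticoids and under clock control (chromosome 19, 23141226 to 23168134), changed less over the day. Young values ranged from 81.7 to 137 CPM with a median of 108 (n = 7) at ZT0 and from 128 to 203 CPM with a median of 138 (n = 7) at ZT12, and from 53.6 to 144 CPM over the other 4 time points. The time effect in young mice passed narrowly (edgeR adjusted p = 0.0457). It was lost in 21 of 30 fits that left out 1 mouse, among them each of the 7 mice of ZT12, with adjusted p up to 0.0815 by edgeR, and in Set 2 alone (edgeR adjusted p = 0.214). In nephritic mice it did not pass (edgeR adjusted p = 0.563). Over the day Klf9 was lower in nephritic mice (log2 change -0.55, SE 0.14, edgeR adjusted p = 0.000438), and this held without any single mouse. At ZT4 the nephritic values of 67.9, 70.4, 70.7 and 77.9 CPM lay below all young values, 87.8, 99.2, 102 and 109 CPM (edgeR adjusted p = 0.272). At ZT12 nephritic values ranged from 18.4 to 147 CPM with a median of 76.1 (n = 6) and the difference passed (log2 change -1.10, SE 0.30, edgeR adjusted p = 0.00184). The lowest were HIL5RU at 18.4 and HIL5LL at 30.7 CPM, and in Set 2 alone the ZT12 difference was not past the threshold (log2 change -0.34, SE 0.26, edgeR adjusted p = 0.343).

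Fkbp5 encodes an FK506-binding co-chaperone that is induced by glucocorticoids and lowers the receptor's affinity for hormone (chromosome 17, 28399094 to 28517527). In the fit of all 57 libraries it was the only one of the 9 genes whose level over the day was higher past the threshold in nephritic mice (log2 change 0.52, SE 0.14, edgeR adjusted p = 0.000832). In young mice it was low at ZT20, 25.6, 27, 29.8 and 42 CPM, and at ZT4, 21, 23.1, 29.8 and 33.9 CPM, and ranged from 33.7 to 40.8 CPM with a median of 36.7 (n = 7) at ZT0. Values at ZT8 were 29.7, 29.9, 35.8 and 38.1 CPM and at ZT12 they ranged from 83.6 to 160.4 CPM with a median of 124 (n = 7). At ZT16 they were 59.2, 76.3, 83.5 and 108 CPM, so that every young mouse of ZT12 and ZT16 was above every young mouse of the other 4 time points (edgeR adjusted p = 4.12e-11 for the time effect). The young cosine had an amplitude of 0.95 (SE 0.13) on the log2 scale with a fitted peak at ZT 13.8 (SE 0.573 h).

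In nephritic mice Fkbp5 had its highest medians at ZT12 and ZT20, and its values lay above those of young mice at ZT20 and ZT0. Within the nephritic group the ZT0 median of 59 CPM was near those of ZT8 (57.5 CPM) and ZT16 (55.7 CPM). At ZT12 the nephritic values ranged from 60.0 to 181 CPM with a median of 139 (n = 6), overlapping the young range, and at ZT16 they were 47.5, 55.7 and 68.4 CPM. At ZT20 they were 85.8, 91.7 and 119.6 CPM, without overlap with young mice (log2 change 1.66, SE 0.29, edgeR adjusted p = 0.000185). At ZT0 they ranged from 42.3 to 115 CPM with a median of 59 (n = 7), again without overlap with young mice (log2 change 0.99, SE 0.21, edgeR adjusted p = 0.000244). The highest at ZT0 were RX10LU at 115, CRS60 at 110.5 and CRS6LU at 97.8 CPM. Values at ZT4 were 26.2, 27.3, 34 and 36.8 CPM and overlapped those of young mice, and at ZT8 they were 33.6, 55.9, 59.1 and 63.6 CPM. The nephritic time effect passed (edgeR adjusted p = 0.0025), with an amplitude of 0.66 (SE 0.20) on the log2 scale with a fitted peak at ZT 16 (SE 1.05 h). The rhythm differed between the groups (edgeR adjusted p = 0.00557), and this call held without any single mouse and without the libraries high in liver markers. It was lost with a 24 h cosine in place of separate time points (edgeR adjusted p = 0.361).

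Zbtb16 encodes the transcription factor PLZF (chromosome 9, 48654297 to 48836222) and was the least abundant of the targets, with a median of 0.771 CPM per kb in young mice. Its ZT12 values stood apart from all others in young mice. Values were 1.12, 1.32, 1.36 and 1.57 CPM at ZT4 and 1.79, 2.16, 2.89 and 4.62 CPM at ZT8, and at ZT12 they ranged from 17.9 to 26.7 CPM with a median of 19 (n = 7), above every young mouse of any other time. At ZT16 they were 3.82, 4.06, 5.66 and 6.41 CPM, at ZT20 2.24, 3.03, 3.86 and 6.55 CPM, and at ZT0 they ranged from 2.60 to 7.30 CPM with a median of 4.10 (n = 7). The highest mean was 15.2 times the lowest (edgeR adjusted p = 3.29e-10 for the time effect), with an amplitude of 1.19 (SE 0.21) on the log2 scale with a fitted peak at ZT 14.2 (SE 0.733 h).

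Nephritic Zbtb16 values were 1.40, 1.51, 1.76 and 2.05 CPM at ZT4 and 2.20, 2.71, 2.97 and 5.84 CPM at ZT8. At ZT12 they ranged from 3.73 to 31.6 CPM with a median of 20.9 (n = 6), with HIL5RU and HIL5LL at 3.73 and 6.11 CPM and the other 4 mice at 16.6 CPM or more. They were 5.03, 6.27 and 6.87 CPM at ZT16 and 5.64, 5.86 and 6.54 CPM at ZT20, and at ZT0 they ranged from 3.72 to 21.9 CPM with a median of 5.92 (n = 7), with RX10LU highest. The time effect passed (edgeR adjusted p = 0.001), with an amplitude of 1.01 (SE 0.33) on the log2 scale with a fitted peak at ZT 16.1 (SE 1.09 h). The level over the day did not pass (log2 change 0.33, SE 0.17, edgeR adjusted p = 0.0905) except in Set 2 alone (log2 change 0.53, SE 0.15, edgeR adjusted p = 0.00348) and without the 3 libraries high in liver markers, and the rhythm did not differ past the threshold (edgeR adjusted p = 0.583).

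**Figure D2:**
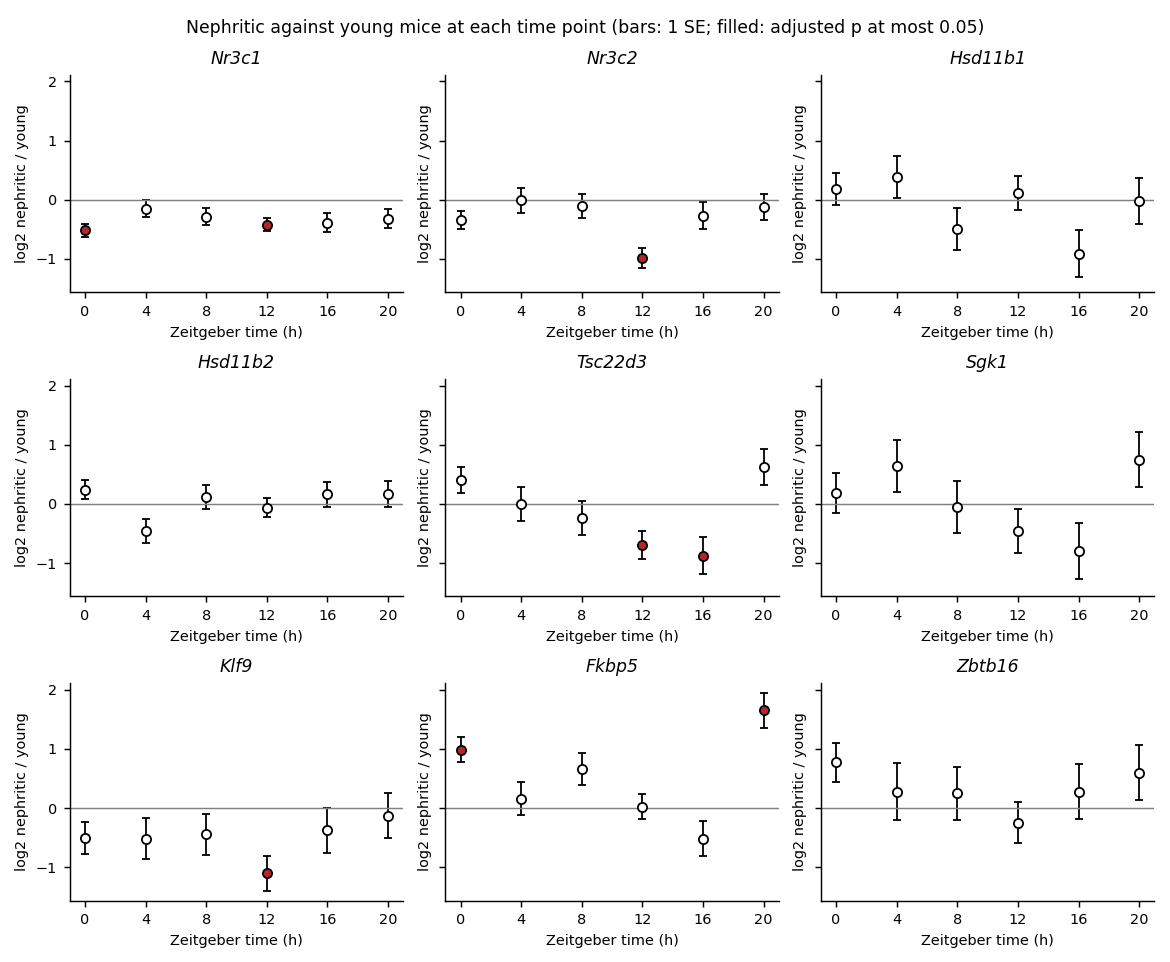
Log2 difference of nephritic against young mice at each Zeitgeber time (h) for the 9 genes, from 1 edgeR fit of 30 young and 27 nephritic mice, with bars of 1 SE and filled points where the adjusted p is at most 0.05. Fkbp5 reaches 1.66 at ZT20 and 0.99 at ZT0 and lies near 0 at ZT12, where Klf9 (-1.10), Nr3c2 (-0.99), Tsc22d3 (-0.70) and Nr3c1 (-0.42) are filled below 0.

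Counted by time point, the genes past the threshold between nephritic and young mice were few, and the shares of all genes tested that passed varied widely. At ZT0, 2 of the 9 genes passed, Fkbp5 higher and Nr3c1 lower, where 39.5% of all genes did. In Set 2 alone Zbtb16 was higher at ZT0 as well (log2 change 1.21, SE 0.37, edgeR adjusted p = 0.0131). At ZT4 and at ZT8, 0 of the 9 genes passed in edgeR, DESeq2 or limma, where 30.3% and 3.66% of all genes did, and 1 gene at each time had an unadjusted p under 0.05 in edgeR (Hsd11b2 at ZT4 and Fkbp5 at ZT8). At ZT12, 4 passed, all lower (Tsc22d3, Klf9, Nr3c1 and Nr3c2), where 50% of all genes did. At ZT16, 1 passed, Tsc22d3, where 17.7% of all genes did. At ZT20, 1 passed, Fkbp5, where 5.48% of all genes did.

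Within the nephritic group 3 of the targets and Nr3c1 were inversely related to a marker of tubular injury. Lcn2, which encodes the injury marker lipocalin-2, ranged from 4.77 to 708.3 CPM over the 27 nephritic mice. Log2 CPM of each gene, less its time point and set means, was correlated with that of Lcn2 over these 27 mice. These were 9 relations in all. The share of all genes related to Lcn2 in this way was not computed, so the relations are not shown to be particular to these genes. Tsc22d3 was inversely related (Pearson r = -0.818, Spearman rho = -0.819, adjusted permutation p = 4.5e-05 and 9e-05). So was Sgk1 (r = -0.781, rho = -0.752, adjusted permutation p = 4.5e-05 and 0.00027). Here 1e-05 is the smallest unadjusted p that the 100000 permutations can give, and the Pearson value of both genes reached it. Klf9 (r = -0.624, rho = -0.673, adjusted permutation p = 0.00138 and 0.00072) and the receptor gene Nr3c1 (r = -0.595, rho = -0.599, adjusted permutation p = 0.00225 and 0.00272) followed.

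Fkbp5 (r = 0.104, rho = 0.0446, adjusted permutation p = 0.605 and 0.825) and Zbtb16 (r = 0.159, rho = 0.0501, adjusted permutation p = 0.482 and 0.825) showed no such relation past the threshold, and the difference between the genes' correlations was not tested. Nr3c2 passed by rank only (r = -0.366, rho = -0.459, adjusted permutation p = 0.0932 and 0.0311). Hsd11b1 (r = 0.288, adjusted permutation p = 0.187) and Hsd11b2 (r = 0.366, adjusted permutation p = 0.0932) did not pass by Pearson or by rank. Without CRS6LL and RX10LU, the 2 mice farthest from the median of Lcn2, r was -0.768 for Tsc22d3, -0.722 for Sgk1, -0.541 for Klf9 and -0.477 for Nr3c1, and all 4 still passed, whereas the rank relation of Nr3c2 did not (adjusted permutation p = 0.136). In the 22 mice of Set 2, r was -0.90 for Tsc22d3, -0.808 for Sgk1, -0.828 for Klf9 and -0.586 for Nr3c1, and Hsd11b1 also passed there (r = 0.649, adjusted permutation p = 0.00277). Nr3c2 passed by rank in Set 2 (rho = -0.514, adjusted permutation p = 0.0255). Set 1 holds 5 nephritic mice at 2 time points, too few for a value of its own.

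The nephritic mice of ZT0 give an example. RX11LL and RX12LL, with Lcn2 at 5.37 and 7.28 CPM, had the highest Tsc22d3, Sgk1 and Klf9 of the nephritic ZT0 mice and the lowest Zbtb16 (4.45 and 3.72 CPM). RX10LU, with Lcn2 at 391 CPM, had Tsc22d3 at 37.8, Sgk1 at 119 and Klf9 at 55.4 CPM and the highest Fkbp5 and Zbtb16 of its time, 115 and 21.9 CPM. RX10LU was also the 1 nephritic library with over 10 CPM of Cyp11b1 (221 CPM). CRS60, with Lcn2 at 708 CPM, had the lowest Sgk1 (82.4 CPM) and the next highest Fkbp5 after RX10LU. Its Tsc22d3 (44 CPM) was the median of these mice. Its Klf9 (72.9 CPM) exceeded that of CRS6LL (61.1 CPM), the mouse with the lowest Lcn2 residual (-3.85). RX12RU, with Lcn2 at 307 CPM, had the lowest Tsc22d3 of these mice (35.9 CPM) and also the lowest Fkbp5 (42.3 CPM), with Zbtb16 at 5.83 CPM.

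**Figure D3:**
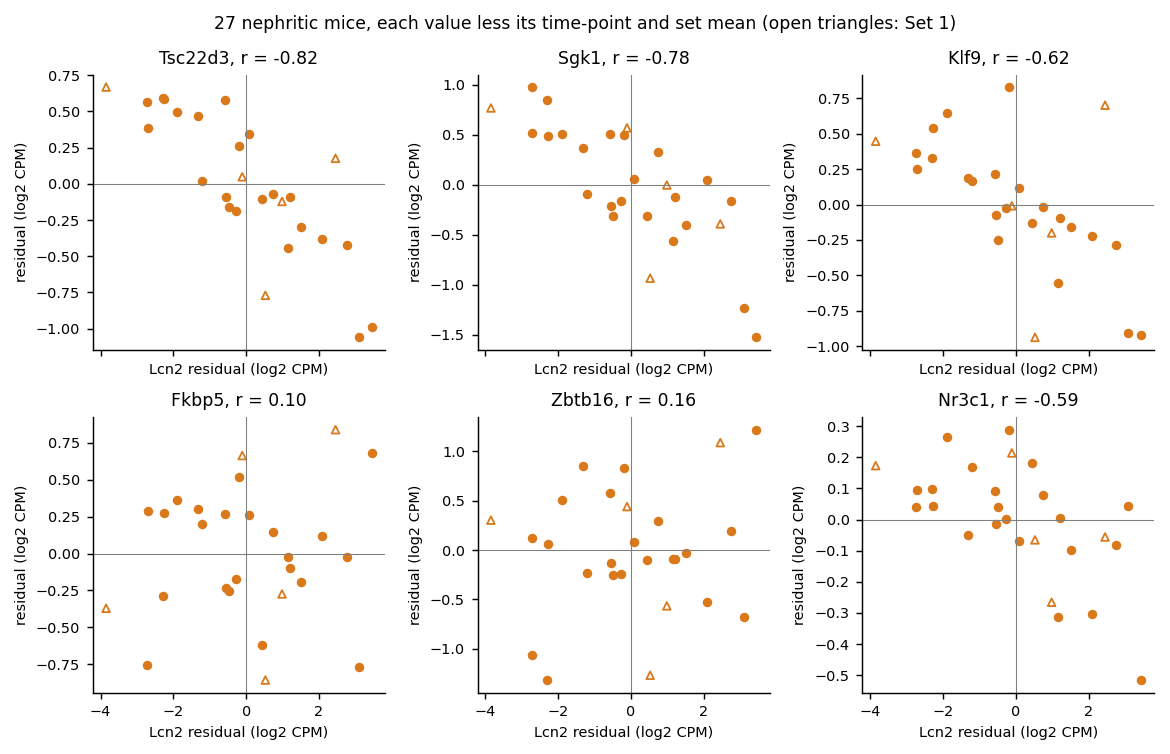
Residual log2 CPM of the 5 targets and Nr3c1 against that of Lcn2 in 27 nephritic mice, each value less its time point and set mean, with 1 point per mouse and open triangles for the 5 Set 1 mice. Tsc22d3 and Sgk1 fall as Lcn2 rises (r = -0.82 and -0.78), whereas Fkbp5 and Zbtb16 are scattered (r = 0.10 and 0.16).

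The 5 targets were also correlated with each other, over 10 pairs in each of the 2 groups (20 relations). In nephritic mice Tsc22d3 and Sgk1 (r = 0.905, rho = 0.859), Tsc22d3 and Klf9 (r = 0.892, rho = 0.904) and Sgk1 and Klf9 (r = 0.80, rho = 0.741) varied together. So did Fkbp5 and Zbtb16 (r = 0.811, rho = 0.814), and each of these 4 pairs had an adjusted permutation p of 4e-05 by both measures, from the smallest p the permutations can give. Tsc22d3 and Fkbp5 (r = 0.237, rho = 0.242, adjusted permutation p = 0.357 and 0.342) and Tsc22d3 and Zbtb16 (r = 0.145, rho = 0.277, adjusted permutation p = 0.623 and 0.266) did not pass. In young mice Tsc22d3 and Sgk1 passed (r = 0.766, rho = 0.773, adjusted permutation p = 4e-05 for both), and Tsc22d3 and Klf9 passed by Pearson only (r = 0.488, rho = 0.407, adjusted permutation p = 0.019 and 0.0788). Fkbp5 and Zbtb16 did not pass in young mice (r = 0.319, rho = 0.312, adjusted permutation p = 0.168 and 0.169). Differences between pairs, and between nephritic and young mice, were not tested. Pairs of other genes were not correlated in this way, so no share of all pairs stands beside these counts.

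Leaving out the 2 mice farthest from the median of the first gene of a pair kept each of these calls, with r of 0.85 for Tsc22d3 and Sgk1, 0.838 for Tsc22d3 and Klf9, 0.693 for Sgk1 and Klf9 and 0.744 for Fkbp5 and Zbtb16 in nephritic mice. In Set 2 alone the same 4 nephritic pairs passed, with r of 0.921, 0.90, 0.893 and 0.721. Pairs that passed by Pearson only when the farthest mice were left out were Zbtb16 and Klf9 in nephritic mice (r = 0.663, adjusted permutation p = 8e-04, without RX10LU and RX12LL) and Fkbp5 and Klf9 in young mice (r = 0.462, adjusted permutation p = 0.0334, without CR3RL and ZT12RU). Nephritic Zbtb16 and Klf9 had r = 0.308 in all 27 mice and, with the opposite sign, r = -0.185 in Set 2 alone (adjusted permutation p = 0.218 and 0.592). Young Fkbp5 and Klf9 had r = 0.413 in all 30 mice and 0.411 in Set 2 alone (adjusted permutation p = 0.0663 and 0.127).

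**Figure D4:**
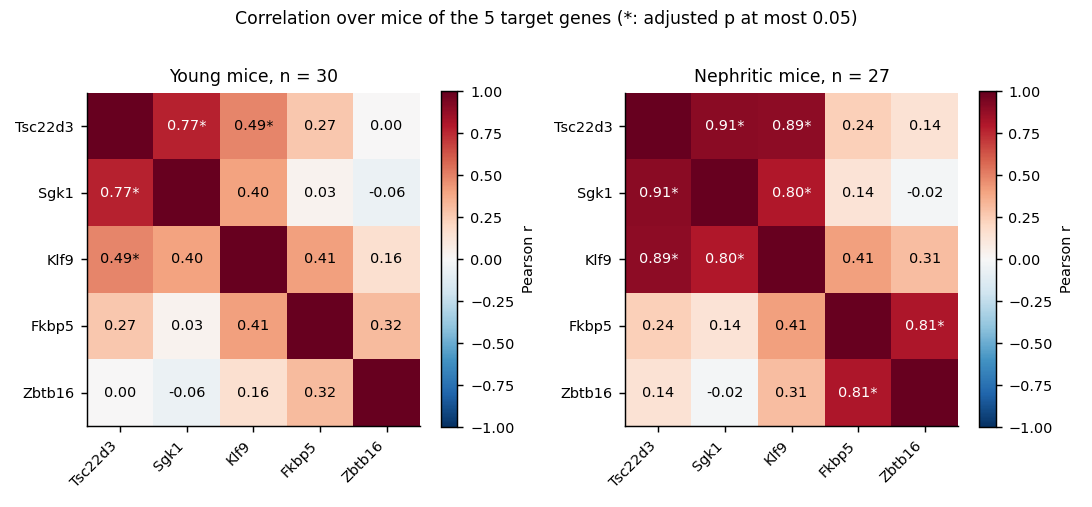
Pearson r over mice between the 5 target genes in young (n = 30) and nephritic (n = 27) mice, after removal of time point and set means, as a colour scale with the value in each cell and a star at an adjusted permutation p of at most 0.05. In nephritic mice Tsc22d3, Sgk1 and Klf9 share values of 0.80 to 0.905 and Fkbp5 and Zbtb16 share 0.811.

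Remission mice were compared at the times they share with the other groups, ZT0 and ZT12, in 1 fit of 35 libraries. In young mice 3 of the 9 genes rose from ZT0 to ZT12, where 3.66% of all genes tested passed, Tsc22d3 (log2 change 1.54, SE 0.32, edgeR adjusted p = 0.00241), Fkbp5 (log2 change 1.73, SE 0.29, edgeR adjusted p = 0.000281) and Zbtb16 (log2 change 2.09, SE 0.40, edgeR adjusted p = 0.00109). In nephritic mice 0 of the 9 passed in edgeR, DESeq2 or limma, where 3.52% of all genes did in edgeR, and 4 had an unadjusted p under 0.05 (Fkbp5 and Zbtb16 with higher and Nr3c2 and Hsd11b2 with lower values at ZT12). In remission mice 0 of the 9 passed in edgeR, where 0.0475% of all genes did, and 3 had an unadjusted p under 0.05 (Tsc22d3, Fkbp5 and Zbtb16). DESeq2 passed 2 genes in remission mice and limma 0.

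Fkbp5 in remission mice was 35.6, 38.4, 40.6 and 54.3 CPM at ZT0 and 36.4, 148, 173 and 264 CPM at ZT12 (log2 change 1.87, SE 0.39, edgeR adjusted p = 0.0568). The lowest ZT12 value was that of s9, within the ZT0 range, and the other 3 were far above it. Tsc22d3 was 35, 40.9, 41.5 and 47.3 CPM at ZT0 and 38.9, 59.3, 186 and 234 CPM at ZT12 (log2 change 1.65, SE 0.42, edgeR adjusted p = 0.216). Here s9 was again within the ZT0 range, s14 was at 59.3 CPM, and s12 and s10 were at 186 and 234 CPM. Without s9 the rise passed for Fkbp5 (log2 change 2.20, SE 0.33, edgeR adjusted p = 0.000374) and for Tsc22d3 (log2 change 1.95, SE 0.40, edgeR adjusted p = 0.0114). The library s9 was set apart by its counts, which include these genes, so the values without it are a description.

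The ZT12 library s14 was high for some targets and low for others. For Fkbp5 it was the highest remission mouse, at 264 CPM, and for Zbtb16, at 11.2 CPM, it lay above the ZT0 values of 2.92, 3.85, 4.32 and 8.38 CPM. For Sgk1 it was at 147 CPM, within the ZT0 values of 143, 147, 152 and 168 CPM, while s12 and s10 were at 491 and 542 CPM. For Klf9 it was the lowest remission mouse at 61.9 CPM. The difference of Sgk1 (log2 change 1.11, SE 0.56, edgeR adjusted p = 0.772) and of Zbtb16 (log2 change 1.29, SE 0.53, edgeR adjusted p = 0.699) did not pass, with or without s9.

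The size of the ZT12 to ZT0 difference was compared between groups directly, and 0 of the 9 genes passed in any of the 3 comparisons in edgeR, DESeq2 or limma. Remission against nephritic mice gave 0 of all genes (0%) and 2 of the 9 with an unadjusted p under 0.05 in edgeR. Tsc22d3 had a log2 difference of 1.22 (95% interval 0.19 to 2.25) and Fkbp5 one of 1.12 (95% interval 0.17 to 2.07), each with an edgeR adjusted p of 0.651. Remission against young mice gave 0.0178% of all genes and 0 of the 9 with an unadjusted p under 0.05, with wide intervals such as -0.91 to 1.11 for Tsc22d3. Nephritic against young mice gave 0.0772% of all genes and 3 of the 9 with an unadjusted p under 0.05 (Tsc22d3, Fkbp5 and Nr3c2).

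Averaged over ZT0 and ZT12, 1 of the 9 genes differed between remission and nephritic mice, where 37.8% of all genes tested passed. This was Nr3c2, at 14.1, 17.2, 17.6 and 18.8 CPM at ZT0 and 11.6, 16.4, 16.5 and 19.9 CPM at ZT12, which was higher than in nephritic mice (log2 change 0.65, SE 0.15, edgeR adjusted p = 0.00104). At ZT12 the remission and nephritic ranges overlapped only through s14, the lowest remission mouse. Against young mice 2 of the 9 differed, where 41.6% of all genes tested passed. Nr3c1 was lower (log2 change -0.42, SE 0.11, edgeR adjusted p = 0.0028), at 76.9, 89.1, 89.2 and 104 CPM at ZT0 and 74.7, 83.9, 85.1 and 88.3 CPM at ZT12. Hsd11b1 was higher (log2 change 0.51, SE 0.15, edgeR adjusted p = 0.0084), at 55.9, 56, 57.6 and 58 CPM at ZT0 and 49.4, 53.3, 57.6 and 70.2 CPM at ZT12, values above those of every young mouse of these times. These 3 calls held without s9. When the run was estimated from the 4 repeat libraries, 0 of the 9 genes passed in either comparison. The log2 changes were 0.44 for Nr3c2 (edgeR adjusted p = 0.115), -0.30 for Nr3c1 (edgeR adjusted p = 0.172) and 0.39 for Hsd11b1 (edgeR adjusted p = 0.229). In this fit the repeats entered as separate samples beside the originals labelled as the same mice. The repeat library of RX11RU was far from its original (chi-square per gene 81.75, against 15.37 to 26.11 for the other repeats) and nearer to RX11LU (29.8). Without this repeat, a comparison added after seeing the data, 0 of the 9 genes passed as well, with log2 changes of 0.60 for Nr3c2 (edgeR adjusted p = 0.0598), -0.23 for Nr3c1 (edgeR adjusted p = 0.414) and 0.48 for Hsd11b1 (edgeR adjusted p = 0.192).

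**Figure D5:**
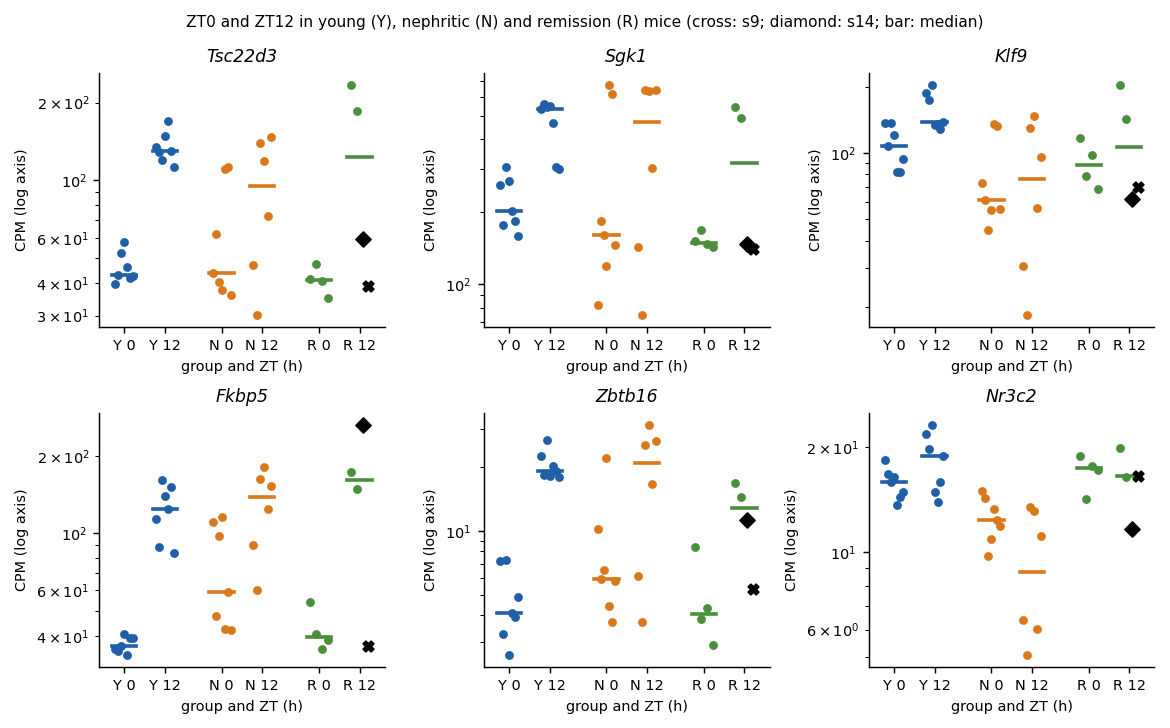
CPM on a log axis at ZT0 and ZT12 in young (Y), nephritic (N) and remission (R) mice for the 5 targets and Nr3c2, with 1 point per mouse, a bar at the median, a cross for s9 and a diamond for s14. The remission mice s12 and s10 lie above the young ZT12 mice for Tsc22d3 and among them for Sgk1, s9 lies with the ZT0 mice for the targets, and s14 is the highest remission mouse for Fkbp5.

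Genes that serve the same receptors were counted from lists drawn up by known role beside the 9, as a description without a test of the lists. Over all genes 62.1% passed between nephritic and young mice, 28.1% higher and 33.9% lower, and the shares passed were 46.2% of chaperones, 61.5% of coregulators, 73.3% of other glucocorticoid targets, 68.2% of genes of the aldosterone-sensitive distal nephron and 91.7% of genes of steroid delivery and turnover. Receptor chaperones, which hold the unbound receptor in a hormone-binding state, had 1 of 13 higher and 5 lower in nephritic mice over the day. Hsp90aa1, the inducible Hsp90, was higher by 0.22 (SE 0.074, edgeR adjusted p = 0.0098) on the log2 scale, and St13, a Hsp70-interacting co-chaperone, had a change of -0.21 (SE 0.045, edgeR adjusted p = 5.45e-05). Fkbp4, the co-chaperone that competes with the Fkbp5 product, had a change of -0.19 (SE 0.057, edgeR adjusted p = 0.00304). Receptor coregulators had 2 of 13 higher and 6 lower. The coactivator Ncoa1 had a log2 change of -0.20 (SE 0.056, edgeR adjusted p = 0.0015). The median over the list was -0.078 for chaperones and -0.062 for coregulators, and over all genes -0.026.

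Of 30 other glucocorticoid targets, 10 were higher and 12 lower in nephritic mice, with a median of 0.062. The cell cycle inhibitor Cdkn1a (log2 change 1.55, SE 0.12, edgeR adjusted p = 1.79e-16), the stress gene Gadd45b (log2 change 0.80, SE 0.10, edgeR adjusted p = 2.7e-09) and Rhob (log2 change 0.74, SE 0.10, edgeR adjusted p = 1.08e-08) were the higher genes with the smallest p. Lpin1, a lipid phosphatase (log2 change -0.65, SE 0.13, edgeR adjusted p = 1.93e-05), Pck1, which drives gluconeogenesis in the proximal tubule (log2 change -0.99, SE 0.20, edgeR adjusted p = 3.45e-05), and Errfi1 (log2 change -0.59, SE 0.13, edgeR adjusted p = 0.000111) were the lower ones. Over time points 26 of the 30 passed in young mice (86.7%, against 39.8% of all genes) and 9 in nephritic mice (30%, against 21.6%), and the rhythm differed for 4 (13.3%, against 6.27%), which were Pnpla2, Tat, Lpin1 and Sult1a1. The clock gene Per1, itself a glucocorticoid target, was among the genes nearest to Tsc22d3 over the 57 libraries (r = 0.841), with Sgk1, Prkag3 (r = 0.87) and Tob2 (r = 0.857). Fkbp5 and Zbtb16 stood at ranks 37 and 39, as a description over libraries that share their times of day.

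Of 22 genes of the aldosterone-sensitive distal nephron, 3 were higher and 12 lower in nephritic mice, with a median of -0.18. Prss8, a protease that activates the epithelial sodium channel (log2 change -0.56, SE 0.065, edgeR adjusted p = 1.85e-10), and the kinase gene Wnk1 (log2 change -0.41, SE 0.083, edgeR adjusted p = 2.34e-05) were lower, and Edn1, which encodes endothelin-1, was higher (log2 change 2.19, SE 0.23, edgeR adjusted p = 1.31e-11). The channel subunits, named after their values were seen, Scnn1a, Scnn1b and Scnn1g did not pass, with log2 changes of -0.13, 0.19 and 0.018. Over time points 13 of the 22 passed in young mice (59.1%, against 39.8% of all genes) and 1 in nephritic mice (4.55%, against 21.6%), and the rhythm differed past the threshold for 2 (9.09%, against 6.27%). Of 12 genes of steroid delivery and turnover, 2 were higher, H6pd, which supplies the cofactor of the Hsd11b1 enzyme (log2 change 0.40, SE 0.070, edgeR adjusted p = 2.77e-06), and Srd5a1 (log2 change 0.59, SE 0.15, edgeR adjusted p = 0.000843), and 9 were lower. The lower genes included Serpina6, which encodes corticosteroid-binding globulin (log2 change -2.79, SE 0.24, edgeR adjusted p = 2.62e-14), and Por (log2 change -0.79, SE 0.097, edgeR adjusted p = 1.01e-09). Serpina6 is also a liver product and was high in the 3 young libraries with the highest liver markers.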

How the data were processed

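RNASeq read counts per gene symbol were measured in 69 libraries of whole kidney. The deposited counts are whole numbers that the authors obtained by aligning paired-end reads to mm10 and counting uniquely aligned reads; HISAT is named in the submitters' processing notes. The 4 repeat libraries were used only to estimate the run, and 15 of 24538 symbols with empty cells were left out. Genes needed 100 counts over the libraries of a fit. edgeR 4.0.16 (R 4.3.3) quasi-likelihood tests with TMM scaling and Benjamini-Hochberg adjustment (0.05) were fitted over all genes with time point, group and set; the set came from the study's sample list. CPM are TMM-scaled, with a prior count of 2 for log2 CPM. Correlations used residuals and 100000 two-sided permutations, which treat residuals as exchangeable. Alternatives were DESeq2 1.42.0, limma 3.58.1, RLE factors, no filter, no set, Set 2 alone, a 24 h cosine and leaving out libraries. On simulated data, of 200 changed genes, 184 were recovered for the level of nephritic against young mice (log2 difference 0.5), 152 and 154 for time in young and nephritic mice (log2 amplitude 0.5), 186 for the rhythm difference (log2 amplitude 1) and 161 for ZT12 against ZT0 in remission mice (2-fold). The simulation gave each gene 1 spread for all groups, changed abundant genes only, and placed the rhythm of the rhythm difference in young mice alone. It thus cannot show whether recovery differs between young and nephritic mice, or how it falls for smaller differences in rhythm. The members and lists were chosen with earlier results of these data known. The named genes are the 9 members, the 3 genes of smallest p in each direction of each list, of which some are printed, and the 5 genes most like Tsc22d3; some items that this rule names are not reported here. By the labels each mouse gave 1 original library, so p-values of fits on original libraries measure the spread between mice if the labels hold. The originals RX12LU and RX11RL, labelled as different nephritic ZT4 mice, were the nearest pair of all libraries (chi-square per gene 4.155). The nearest repeat and original of the same mouse stood at 15.37. Whether RX12LU and RX11RL are independent mice was not tested. The fits with a run term also held repeat libraries as separate samples, without a term for mouse. Their p-values thus do not measure the spread between mice alone.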

Additional observations from a re-analysis of the deposited data

Results flagged for a closer look

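Of 108 combinations of gene, group and time with 4 to 10 mice, 8 held a mouse whose gap to the others exceeded Dixon's 95% critical value, where chance gives about 1 in 20. Hsd11b2 was far higher in CRS60 than in the other nephritic ZT0 mice, at 473 CPM against 327 CPM in the next. It was also far higher in HIL5LL than in the other nephritic ZT12 mice, at 357 CPM against 228 CPM. In young mice Hsd11b2 was low in ZT20LU, at 155 CPM where the highest mouse of ZT20 had 268 CPM, and Nr3c1 was high in the same library, at 152 CPM against 114 CPM. ZT20LU is 1 of the 8 libraries with over 10 CPM of Cyp11b1. Nr3c1 was low in ZT16RU, at 84.8 CPM against 109 CPM, a library high in both liver markers and Cyp11b1. In ZT8LU, the library with the most Alb, Hsd11b1 was high at 115 CPM against 32.3 CPM, and Tsc22d3 was low at 42.9 CPM against 52.6 CPM. Zbtb16 was high in the nephritic ZT0 mouse RX10LU, at 21.9 CPM against 10.2 CPM in the next, and this library also had over 10 CPM of Cyp11b1. The part of the liver and adrenal transcripts in these values was not tested.

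The time course differed between nephritic and young mice by the edgeR test of the difference itself for Fkbp5 (adjusted p = 0.00557) and Tsc22d3 (adjusted p = 0.0351).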

How the results depend on the processing

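In 1563 recomputed values no call with a signed change reversed its direction. The calls on time and rhythm have no sign, so those among the 1563 values could not reverse. Of 30 calls on single genes DESeq2 and limma each kept 30, and no filter and RLE size factors each kept 29. Omission of the libraries with over 10 CPM of Cyp11b1 kept 29. Omission of those with over 5000 CPM of Alb, added after seeing the data, kept 28. Set 2 alone kept 26 and no set covariate 25. The number of the 9 genes past the threshold moved as follows, and the cause was not tested. Over time in nephritic mice it was 3 without the set covariate and 0 with the cosine, against 5. For the rhythm difference (2) it was 0 with the cosine and 1 without the Alb libraries. Between nephritic and young mice in Set 2 alone it was 4 at ZT0 (2), 1 at ZT4 (0), 2 at ZT12 (4) and 2 at ZT16 (1), and at ZT16 it was 0 with RLE, without the filter, without the set covariate, without the Cyp11b1 libraries and without the Alb libraries. From ZT0 to ZT12 it was 1 in nephritic mice without the Cyp11b1 libraries (0), and in remission mice (0) 1 with RLE, 2 with DESeq2 and 2 without s9 and s14 (added after seeing the data; s14 was chosen for its low values of some targets, so this count supports nothing). For remission against nephritic mice (1) it was 2 with limma, 2 without the set covariate, 3 in Set 2 alone and 0 with the run estimated from 4 repeats or, added after seeing the data, 3 repeats, and against young mice (2) it was 0 with either. Leaving out 1 mouse gave 1 to 3 for the rhythm difference, 0 to 1 at ZT16, 0 to 1 for ZT12 against ZT0 in nephritic mice (1 without HIL5LL or RX10LU), 0 to 2 in remission mice (1 without CRS60, HIL5RU or RX11LL and 2 without s9) and 1 to 2 for remission against nephritic mice (2 without CRS6LU, HIL5RU, RX10LU, RX12RU, RX9RL or s1). No paired analysis was possible because each mouse gave 1 time point and the replicate numbers pair no mice across groups. With 3 or 4 mice at most times and the lower depth of remission libraries, differences at single times are less precise than levels over the day.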
